A study of Mus musculus with 8 samples.

Results

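Genes of the integrated stress response and of the unfolded protein response were compared between Nd2-mutant and control skin fibroblasts. The members were 37 gene symbols in 2 classes, 23 genes of the type that the transcription factor ATF4 controls and 14 genes of the endoplasmic reticulum (ER). Every probe of the normalized table that carried a member's symbol was taken, which gave 45 probes of 33 genes among 25697 probes with 18138 symbols. No probe was found under the symbols Slc7a5, Eif2ak3, Atf6 and Sdf2l1. Of the 33 genes, 28 were tested, with 38 probes, and Cebpg, Psph, Pycr1, Ern1 and Canx were not, because their probes were not detected on all 4 arrays of either strain.

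RNA was hybridised to 8 bead arrays (Illumina MouseRef-8 v2.0), 1 for each of 4 Nd2-mutant mice (males 28 and 32, females 34 and 35) and 4 control mice (males 16 and 17, females 15 and 37). All mice were 12 months old. Nd2-mutant mice were of the strain C57BL/6J-mtALR/LtJ and control mice of the strain C57BL/6J-mtAKR/J. These are conplastic strains, in which a common C57BL/6J nuclear genome is combined with the mitochondrial genome of another strain (ALR/LtJ or AKR/J), so that neither strain carries the mitochondrial DNA of C57BL/6J. Nd2 encodes a subunit of respiratory complex I, and no probe for the mitochondrial gene was found, so that the mutation itself was not read out here. For the mutant fibroblasts the study reports higher complex I activity and ATP and lower reactive oxygen species than in control fibroblasts. Fibroblasts were freed from skin with Liberase and grown in DMEM with serum and antibiotics, and the labels name no stress treatment. Each array stood for cells of a separate mouse, and with 4 arrays per strain the precision is limited by their number.

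Both responses adjust a cell to stress. In the integrated stress response, kinases phosphorylate the initiation factor eIF2, general translation slows, and ATF4 is translated preferentially; ATF4 then induces genes for amino acid synthesis and uptake, one-carbon metabolism, feedback regulators such as Trib3 and Ddit3 (CHOP), and secreted factors such as Gdf15 and Fgf21, and defects of the respiratory chain are among its known triggers. In the unfolded protein response, the ER sensors IRE1 (Ern1), PERK (Eif2ak3) and ATF6 react to misfolded proteins in the ER, and XBP1 and ATF6 induce chaperones and the degradation machinery. PERK is also an eIF2 kinase and thereby joins both pathways.

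The promoter sequences printed here show elements that were searched for in both classes, and most genes of each class held no match. In the RefSeq table (GRCm38.p6), windows from 250 bases before to 50 bases after the transcription start were held for 35 of the 37 members. They were searched on both strands for the composite C/EBP-ATF element (CARE, TGATGNAA), the ER stress element (ERSE, CCAAT, then any 9 bases, then CCACG) and the unfolded protein response element (UPRE, TGACGTGG). No match overlapped a match of another motif among the sequences printed. A CARE match was held by 8 of 22 ATF4-type genes (Asns, Chac1, Fgf21, Nupr1, Pycr1, Slc7a11, Trib3 and Vldlr) and by 1 of 13 ER genes (Herpud1), against 4.51% of all 27025 genes and 3.97% of all 32851 windows of this length. An ERSE match was held by 5 of 13 ER genes (Calr, Canx, Hsp90b1, Hspa5 and Pdia6) and by 0 of 22 ATF4-type genes, against 0.137% of all genes and 0.119% of all windows. UPRE had 0 matches in the members and was held by 0.714% of all genes. These matches are descriptions of the letters and not sites of measured binding. Capitals mark the matches, each sequence is printed along its gene's strand, and a match on the other strand appears as its reverse complement. The first 3 sequences belong to ATF4-type genes with a CARE match and the last 3 to ER chaperones with an ERSE match.
Asns, chr6:7693210-7693272, minus strand: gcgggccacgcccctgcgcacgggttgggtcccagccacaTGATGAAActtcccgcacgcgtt
Chac1, chr2:119351009-119351096, plus strand: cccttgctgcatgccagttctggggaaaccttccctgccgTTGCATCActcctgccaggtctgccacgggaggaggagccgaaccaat
Slc7a11, chr3:50443614-50443719, minus strand: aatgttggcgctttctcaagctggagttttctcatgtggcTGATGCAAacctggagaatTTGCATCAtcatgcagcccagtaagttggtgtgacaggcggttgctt
Hspa5, chr2:34771985-34772083, plus strand: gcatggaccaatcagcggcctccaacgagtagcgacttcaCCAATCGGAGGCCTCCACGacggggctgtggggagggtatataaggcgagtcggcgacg
Hsp90b1, chr10:86705493-86705694, minus strand: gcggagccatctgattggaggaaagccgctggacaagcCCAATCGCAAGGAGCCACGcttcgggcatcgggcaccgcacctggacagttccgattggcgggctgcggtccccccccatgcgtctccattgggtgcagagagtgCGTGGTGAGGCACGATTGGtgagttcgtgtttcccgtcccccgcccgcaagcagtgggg
Calr, chr8:84847035-84847133, minus strand: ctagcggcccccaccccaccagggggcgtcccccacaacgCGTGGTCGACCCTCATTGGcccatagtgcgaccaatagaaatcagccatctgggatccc

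Values are the deposited intensities, quantile normalized with the background subtracted, on a linear scale that reaches below 0 at the low end. A detection p-value under 0.01 against negative control beads counted as detected, and on each array between 41.5% and 44.2% of probes were detected, with lowest detected intensities of 10.5 to 13.6. Fold changes are given on the log2(intensity + 16) scale, as Nd2-mutant minus control with their standard errors (SE), and understate the difference of dim probes. The array of control mouse 15 stood apart from the rest, with an average correlation of 0.934 to the rest against 0.963 to 0.974 for the other 7. Its array weight in limma was 0.19, where the others had 0.624 to 1.73. Of 11 fibroblast marker genes, 10 had a probe and 9 were detected on all 8 arrays, with summed intensities of 36891 to 42836 in mutant and 30086 to 44654 in control mice. Of 10 macrophage marker genes, 3 were detected on all 8 arrays and Ptprc was detected on none. Their sum was 1739.7 in mutant mouse 35 and 251 to 599 in the other 7 mice. The summed markers were 195 to 1168 for keratinocytes, 64.8 to 339 for endothelial cells, 2.77 to 28.6 for melanocytes and 21279 to 32313 for smooth muscle cells and pericytes, whose list includes the myofibroblast gene Acta2. Control mouse 15 had the endothelial sum of 339, against 64.8 to 182 in the other 7 mice, and the lowest smooth muscle sum, 21279. The part of cell make-up in the values of this mouse was not tested. In such bulk samples, fewer cells of a type and less RNA per cell cannot be told apart.

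No difference between the strains passed the test in either class. With limma over 10414 tested probes of 8003 genes, 0 member probes and 0 of all probes (0%) passed an adjusted p of 0.05, and no member came below an adjusted p of 0.639. At an unadjusted p under 0.05 there were 3 of 38 member probes, or 7.89%, where the background of all tested probes was 7.63%. The methods' t-test left 1 probe of all 10414 after Benjamini-Hochberg adjustment, which was no member, with 698 probes at an unadjusted p under 0.05, of which 2 were member probes. The 4 mutant values all lay beyond the 4 control values for 1 member probe, that of Atf5, or 2.63%, against 4.37% of all tested probes. A p that misses the threshold does not show that the strains did not differ, and intervals are given for the main genes.

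The middle of both classes lay near 0. Of the 28 tested ATF4-type probes (19 genes), 11 had a higher and 17 a lower mean in Nd2-mutant fibroblasts on the log2 scale, with a median log2 fold change of -0.15 and a range of -0.74 to 0.75. The tally shifted with the mice used, to 7 higher and 21 lower without control mouse 15 and to 6 and 22 with array weights. It turned in females alone, with 16 higher and 12 lower and a median of 0.12. The median was -0.07 without mutant mouse 28 and -0.08 without control mouse 16. Of the 10 tested ER probes (9 genes), 4 were higher and 6 lower, with a median of -0.02 and a narrower range of -0.18 to 0.20. Over all tested probes, 50.2% were higher and the median was 0.00. Among the 35 member probes detected on all 8 arrays, 13 were higher and 22 lower, with a median of -0.11. The ATF4-type probes detected on all 8 arrays ranged from -0.74 to 0.29, since the upper end of 0.75 was an Asns probe that entered through the mutant arrays.

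**Figure D1:**
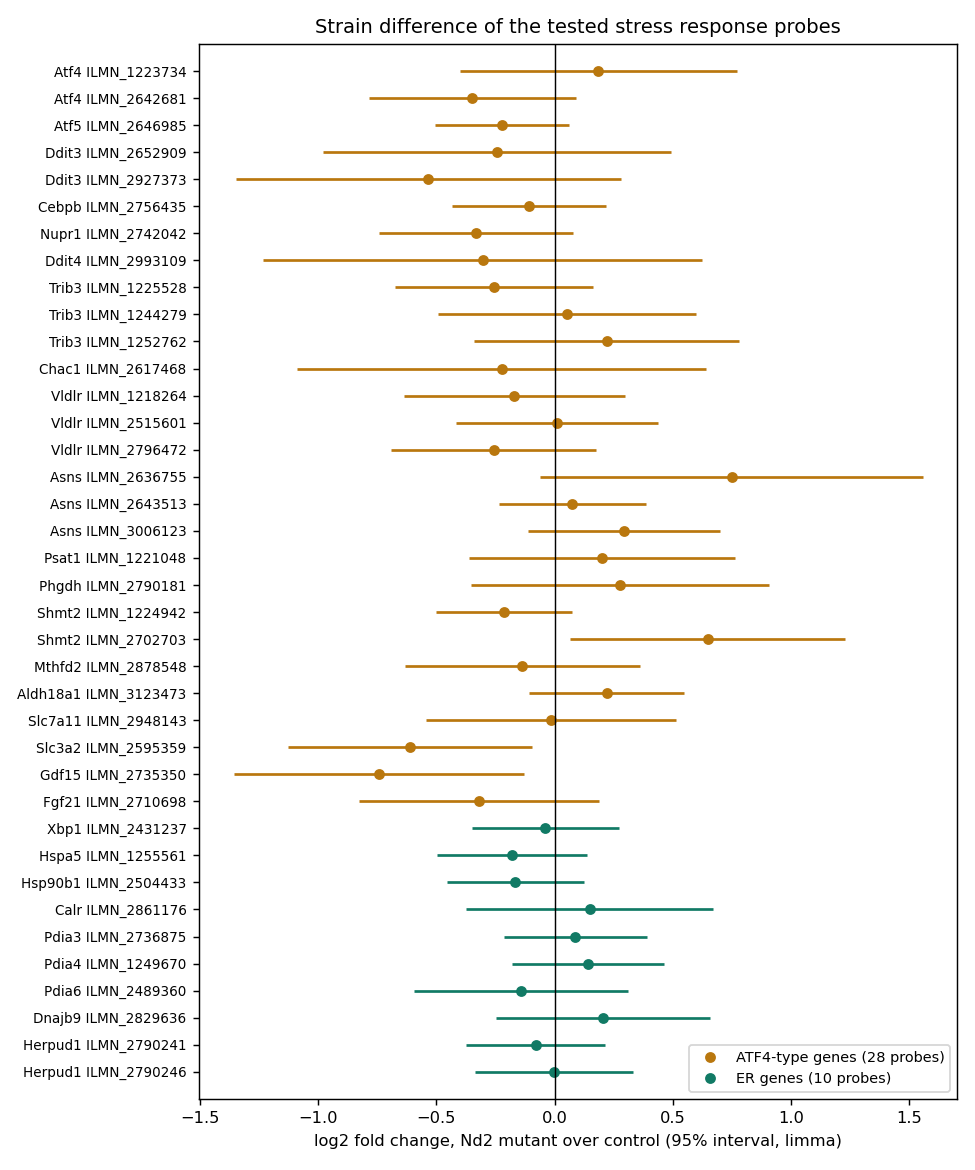
Log2 fold change of each of the 38 tested member probes, Nd2-mutant over control, with its 95% interval from limma, for 28 ATF4-type and 10 ER probes. The ATF4-type probes spread from -0.74 (Gdf15) to 0.75 (Asns), whereas the ER probes, which are fewer, lie between -0.18 and 0.20. The Asns probe at 0.75 entered the test through the mutant arrays. No adjusted p is under 0.05.

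Among the ATF4-type transcription factors, 6 of 7 tested probes had a lower mean in the mutant mice, with a median log2 fold change of -0.24. This median lay between -0.20 and -0.37 when each mouse was left out in turn. In males alone 5 of the 7 were lower (median -0.33), in females alone 4 (median -0.23), and with array weights all 7. Atf4, the factor that gives the pathway its name and that is controlled mainly through its translation, had 2 probes that differed in direction. Probe ILMN_2642681 read 1254, 1799, 1463 and 2253 in mutant mice 28, 32, 34 and 35 and 2597, 2077, 1809 and 2019.6 in control mice 15, 16, 17 and 37. The groups overlapped through mutant mouse 35, and the log2 fold change was -0.35 (SE 0.20, limma adjusted p = 0.650). Probe ILMN_1223734 (chromosome 15) read 556, 651, 776 and 568 in mutant mice and 316, 511, 699.6 and 826 in control mice in the same order. Here the control mice spanned the whole range of the mutant mice, and the log2 fold change was 0.19 (SE 0.27, limma adjusted p = 0.838). Control mouse 15 was the lowest of the 8 mice with this probe and the highest with the other one, and without it the value was -0.07, on the same side as that of the other probe.

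Atf5, a related factor with roles in the mitochondrial stress response, was the member whose strains did not overlap. Its intensity (ILMN_2646985, chromosome 7) was 2179.5, 2025, 1803 and 2122 in the mutant mice and 2498, 2336, 2398 and 2244 in the control mice. Every mutant mouse lay below every control mouse, with means of 2032 ± 166 (SD, n = 4) and 2369 ± 107 (SD, n = 4). The log2 fold change was small, at -0.22 (SE 0.13), with an adjusted p of 0.650 from limma. An exact permutation test gave p = 0.0286, the lower limit of the test for 4 mice per strain. Among all tested probes, 2.13% lacked overlap with the mutant mice lower and 2.24% with the mutant mice higher. Leaving out any mouse kept the log2 fold change between -0.26 and -0.17. The study lists Atf5 among its lower genes from these same arrays, so that its direction here is not independent evidence.

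Ddit3, which encodes the stress-induced factor CHOP, varied more between mice of a strain than between the strains. With ILMN_2927373 (chromosome 10) the mutant mice had 136, 91.2, 197 and 343 and the control mice 256, 447, 204 and 182. The highest mutant mouse, 35, was above 3 of the 4 control mice, and the log2 fold change was -0.53 (SE 0.37, limma adjusted p = 0.689). The probe ILMN_2652909 gave 204, 134, 268 and 468 against 249, 446, 285 and 226, with a log2 fold change of -0.24 (SE 0.33, limma adjusted p = 0.829). Mouse 35 was highest among the mutant mice with both probes and also had the high macrophage marker sum. Without it the values were -0.85 and -0.54, and without mutant mouse 32 they were -0.26 and 0.02. The part of those cells in the result was not tested.

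The remaining tested factors also had lower means in the mutant mice. Nupr1, a stress-induced chromatin protein and cofactor (ILMN_2742042, chromosome 7), had 1170.3, 1346, 861 and 1230.0 in mutant and 1376, 1875, 1329 and 1238 in control mice. Mutant mouse 32 overlapped with the control mice, and the log2 fold change was -0.33 (SE 0.19, limma adjusted p = 0.648). Cebpb, a C/EBP factor that pairs with ATF4, read 4983 to 5540.5 in mutant and 4902 to 6994 in control mice, with a log2 fold change of -0.11 (SE 0.15). Cebpg, another partner of ATF4, was detected on 3 of 4 arrays in each strain and was not tested, with intensities of 10.9 to 23.9 in mutant and 9.80 to 58.0 in control mice.

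The enzymes of amino acid and one-carbon metabolism were the only ATF4-type role in which most probes were higher in Nd2-mutant fibroblasts. This tally shrank without control mouse 15. Of 9 tested probes, 7 were higher and 2 lower, with a median log2 fold change of 0.22. Control mouse 15 was the lowest of the 8 mice with 8 of the 9 probes, or 88.9%, whereas it was lowest with 31.4% of all tested probes. Without it, 5 probes were higher and 4 lower and the median was 0.00, and with array weights 4 were higher and 5 lower with a median of -0.02. Leaving out any other mouse kept 7 of 9 higher, with medians of 0.18 to 0.37. In males alone, a comparison without control mouse 15, 7 were higher and 2 lower, with a median of 0.16. In females alone 8 were higher and 1 lower, with a median of 0.28. Control mouse 16, a male, was also low with these probes, with a median deviation from their means of -0.17, against -0.56 for control mouse 15.

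Asns, the asparagine synthetase whose CARE match is printed above, was read by 3 probes. The largest value came from ILMN_2636755, with 85.7, 80.1, 55.9 and 72.2 in mutant mice and 9.45, 24.2, 82.4 and 61.0 in control mice. The mutant mice were close together and control mice 15 and 16 lay far below, while control mouse 17 was above 3 of the 4 mutant mice. Its log2 fold change of 0.75 (SE 0.37, limma adjusted p = 0.639) was 0.40 without control mouse 15, 0.30 with array weights and 1.05 without control mouse 17, and it was 1.11 with 1 and 0.45 with 50 added before the log2. The unadjusted p, 0.0665, was under 0.05 without control mouse 17 or 37. This probe was detected on 3 of 4 control arrays and entered the test through the mutant arrays. The probe ILMN_3006123 (chromosome 6) gave 1153, 1313, 1096 and 1242 against 747, 831, 1267 and 1145, with a log2 fold change of 0.29 (SE 0.18, limma adjusted p = 0.671). The third probe, ILMN_2643513, gave 3108 to 3454 against 2675 to 3505 and a log2 fold change of 0.08 (SE 0.14).

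The serine pathway genes followed the same mice. Phgdh, the first enzyme of serine synthesis (ILMN_2790181, chromosome 3), had 83.7, 99.3, 95.2 and 94.7 in mutant and 29.2, 81.5, 102 and 110.3 in control mice. Control mouse 15 was alone at the bottom and the other control mice surrounded the mutant mice. The log2 fold change of 0.28 (SE 0.29, limma adjusted p = 0.773) became -0.05 without that mouse. Psat1, the next enzyme (ILMN_1221048, chromosome 19), had 3091, 3251, 2268 and 2445 against 1509, 2019.6, 3395 and 3064, and its value of 0.20 (SE 0.25, limma adjusted p = 0.818) likewise became -0.01. The control mice spanned the mutant range on both sides. Psph, the last enzyme of the route, and Pycr1, which makes proline, were detected on no array by the probes under their symbols. This does not show that their RNA was absent. Aldh18a1, the first enzyme of proline synthesis, gave 1116 to 1325 against 858 to 1236 and a log2 fold change of 0.22 (SE 0.15).

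Shmt2, the mitochondrial serine hydroxymethyltransferase, had 2 probes that pointed in opposite directions. The bright probe ILMN_1224942 (chromosome 10) gave 332, 407, 392 and 369 in mutant and 469, 449.9, 425 and 405 in control mice. Only mutant mouse 32 reached above the lowest control mouse, with a log2 fold change of -0.22 (SE 0.13, limma adjusted p = 0.661) and an exact permutation p of 0.0571. The dim probe ILMN_2702703 gave 25.3, 26.4, 27.5 and 20.5 in mutant and -0.0911, 4.95, 22.8 and 19.5 in control mice. It was detected on 2 of 4 control arrays and entered the test through the mutant arrays. Its log2 fold change was 0.65 (SE 0.26, unadjusted p = 0.0325 and limma adjusted p = 0.639), and it depended on the constant added before the log2, at 1.81 with 1 and 0.29 with 50. With array weights it was 0.35, and without control mouse 15 it was 0.41. The unadjusted p was no longer under 0.05 in any of these 4 settings, nor without mutant mouse 28, 32 or 34 or control mouse 16. An unadjusted p under 0.05 with a higher value was found for 4.5% of all tested probes. The study also lists Shmt2 among its lower genes from these arrays, and the direction of the bright probe is not independent evidence. Mthfd2, the next enzyme of the mitochondrial folate route (ILMN_2878548, chromosome 6), had 201, 321, 250.5 and 241 against 174, 361, 313 and 294, with a log2 fold change of -0.14 (SE 0.22, limma adjusted p = 0.859).

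**Figure D2:**
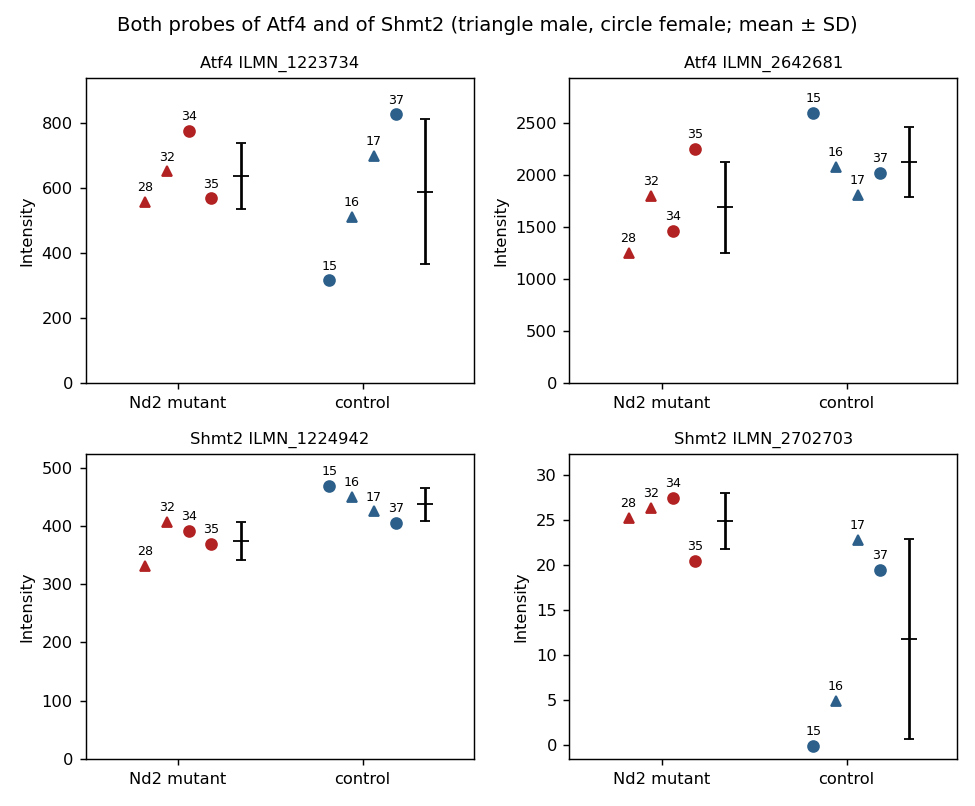
Intensities of both probes of Atf4 and of Shmt2 in each mouse (numbered; triangles male, circles female), with mean ± SD of 4 mice beside each group. Control mouse 15 is lowest with 1 probe of each gene (316 for Atf4, -0.0911 for Shmt2) and highest with the other (2597 and 469).

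The transporters and secreted factors held the 2 lower probes with an unadjusted p under 0.05, against 3.13% of all tested probes. Gdf15, a stress-induced cytokine of the TGF-beta superfamily that is secreted on mitochondrial dysfunction (ILMN_2735350, chromosome 8), had 16.1, 19.3, 41.0 and 29.9 in mutant and 47.2, 75.7, 26.2 and 79.3 in control mice. Control mice 15, 16 and 37 were above all mutant mice, and control mouse 17 lay among them. Means were 26.6 ± 11.3 (SD, n = 4) and 57.1 ± 25.1 (SD, n = 4), with a log2 fold change of -0.74 (SE 0.28, unadjusted p = 0.0222 and limma adjusted p = 0.639). It was -1.04 with 1 added before the log2 and -0.46 with 50 added, and leaving out any mouse gave -0.98 to -0.59. The unadjusted p was no longer under 0.05 without mutant mouse 28 or 32 or control mouse 16 or 37. Fgf21, a secreted metabolic hormone (ILMN_2710698), was near the detection limit, with 16.5, 33.8, 10.8 and 13.6 against 38.5, 22.2, 31.2 and 15.8. It was detected on 3 of 4 mutant arrays and entered the test through the control arrays, with a log2 fold change of -0.32 (SE 0.23, limma adjusted p = 0.696).

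Slc3a2, the heavy chain that carries several amino acid transporters to the cell surface (ILMN_2595359, chromosome 19), had 29.3, 51.7, 44.8 and 60.2 in mutant and 119, 82.1, 72.0 and 50.4 in control mice. Control mice 15, 16 and 17 were above all mutant mice, and control mouse 37 overlapped. Means were 46.5 ± 13.1 (SD, n = 4) and 80.9 ± 28.7 (SD, n = 4), for a log2 fold change of -0.61 (SE 0.23, unadjusted p = 0.0242 and limma adjusted p = 0.639). Without control mouse 15, which had the highest value, it was -0.44 and with array weights -0.38. The unadjusted p was no longer under 0.05 in either case, nor without mutant mouse 28 or control mouse 16. Slc7a11, the cystine transporter that pairs with Slc3a2 and holds 2 CARE matches in the printed sequence, gave 48.3 to 88.5 against 38.2 to 98.8, with a log2 fold change of -0.02 (SE 0.24).

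**Figure D3:**
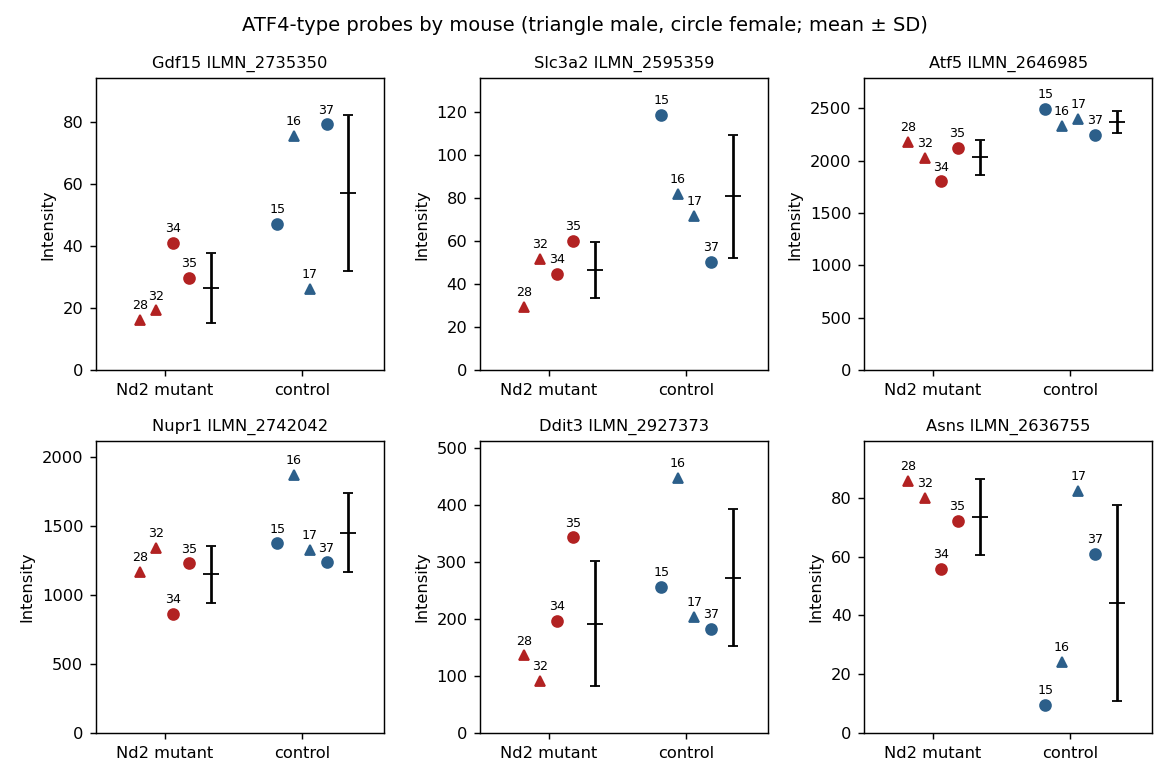
Intensities of 6 ATF4-type probes in each mouse (numbered; triangles male, circles female), with mean ± SD of 4 mice beside each group. The strains do not overlap for Atf5, where mutant mice reach 2179.5 and control mice start at 2244, and they overlap for Gdf15, Slc3a2, Nupr1, Ddit3 and Asns.

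The feedback and effector genes scattered around a median log2 fold change of -0.20, with 3 of 8 probes higher and 5 lower. Without mutant mouse 28 there were 4 on each side with a median of 0.01, without control mouse 17 the median was -0.09, and without mutant mouse 34 it was -0.11. All 8 were lower in males alone, and in females alone 4 were higher and 4 lower with a median of 0.09. Trib3, a pseudokinase that restrains ATF4, had 3 probes on chromosome 2. The probe ILMN_1225528 gave 718, 1029, 706 and 1116 in mutant and 1026, 969.9, 1287 and 937 in control mice, with a log2 fold change of -0.26 (SE 0.19, limma adjusted p = 0.700). The mutant mice formed a lower pair of 28 and 34 and a higher pair of 32 and 35. The same pairs appeared with ILMN_1244279, at 74.3, 133, 77.1 and 127 against 63.8, 84.1, 141 and 108, and with ILMN_1252762, at 43.7, 59.9, 43.4 and 67.6 against 22.5, 40.1, 79.8 and 42.9. Their log2 fold changes were 0.05 (SE 0.25) and 0.22 (SE 0.25), and all 3 probes overlapped between the strains.

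Chac1, which degrades glutathione (ILMN_2617468, chromosome 2), had 299, 685, 1271 and 1194 in mutant and 725, 829, 841 and 1176 in control mice. Both the lowest and the highest mouse were mutant, with a log2 fold change of -0.22 (SE 0.39, limma adjusted p = 0.868) that was 0.20 without mutant mouse 28. Ddit4, an inhibitor of mTORC1 (ILMN_2993109, chromosome 10), gave 624 to 2129 against 722 to 2365 and a log2 fold change of -0.30 (SE 0.42). Vldlr, a lipoprotein receptor, had 3 tested probes at -0.26, -0.17 and 0.01, and 2 further probes on no array.

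The log2 fold changes of the ER probes spanned a narrower range than those of the ATF4-type probes, but the ER probes were fewer (10 against 28). Of the 3 sensors, which were looked up by these symbols alone, only Ern1 had a probe under its symbol. It was detected on no array, with intensities of 2.60, 3.05, -1.48 and 0.182 in mutant and 2.98, 7.99, -5.47 and -6.19 in control mice. The sensors therefore gave no comparison. Xbp1, the factor that IRE1 activates by splicing (ILMN_2431237, chromosome 11), had 2392, 2781, 1998 and 2312 in mutant and 2369.7, 2362, 2597 and 2359 in control mice. The strains overlapped fully, with a log2 fold change of -0.04 (SE 0.14, limma adjusted p = 0.941, 95% interval -0.35 to 0.27). Whether this probe tells the spliced from the unspliced form was not analysed here.

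Among the 9 probes of ER chaperones and degradation factors, 4 were higher and 5 lower, with a median of 0.00, and none had an unadjusted p under 0.05. Hspa5, the main ER chaperone BiP and a standard readout of the response (ILMN_1255561, chromosome 2), had 76.7, 92.1, 99.7 and 70.7 in mutant and 109, 98.3, 95.8 and 87.9 in control mice. Mutant mice 32 and 34 lay among the control mice, and the log2 fold change was -0.18 (SE 0.14, limma adjusted p = 0.715) with a 95% interval of -0.50 to 0.14. Hsp90b1, the ER paralogue of HSP90 (ILMN_2504433, chromosome 10), had 4857, 5184, 5279 and 5242 against 6647, 5719, 5569 and 5214. Control mouse 37 overlapped with the mutant mice, and the log2 fold change was -0.17 (SE 0.13, limma adjusted p = 0.714, exact permutation p = 0.0857). The Hspa5 probe was dim beside that of Hsp90b1, with means of 84.8 in mutant and 97.7 in control mice against 5140.2 and 5787. How well the Hspa5 probe reads its transcript was not tested.

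Calr, the calcium-binding lectin chaperone (ILMN_2861176, chromosome 8), had 750.3, 669, 737 and 801 in mutant and 447, 594, 1103 and 659 in control mice. The mutant mice were close together at 739 ± 54.6 (SD, n = 4) between the extremes of the control mice at 701 ± 282 (SD, n = 4). Its log2 fold change of 0.15 (SE 0.24, 95% interval -0.37 to 0.67) was -0.04 without control mouse 15 and 0.39 without control mouse 17. Canx, its membrane-bound relative, was detected on no array by the probe under its symbol (ILMN_2632083), which does not show that its RNA was absent. The disulfide isomerases Pdia3, Pdia4 and Pdia6 had log2 fold changes of 0.09, 0.14 and -0.14. Dnajb9, a cochaperone of BiP, gave 296 to 383 against 197 to 414 and a log2 fold change of 0.20 (SE 0.20). Herpud1, a part of the degradation machinery and the ER gene with a CARE match, had 2 probes at -0.08 and 0.00.

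The tested genes with an element in the promoter lay on both sides of 0. The log2 fold changes of the CARE genes (Asns, Chac1, Nupr1, Slc7a11, Fgf21, Trib3, Vldlr and Herpud1) ranged from -0.33 to 0.75, and those of the ERSE genes (Calr, Hsp90b1, Hspa5 and Pdia6) from -0.18 to 0.15.

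Single mice stood out across both classes. Control mouse 17 had the highest value of the 8 mice in 11 of 38 member probes, or 28.9%, against 9.32% of all tested probes, and the lowest in 0. Its median deviation from the probes' means was 0.23 over the ATF4-type and 0.21 over the ER probes on the log2 scale, and among the ER probes it was highest in 5 of 10. In the other mice this deviation lay between -0.17 and 0.11 over the ATF4-type and between -0.16 and 0.06 over the ER probes. Without control mouse 17, 6 of 38 member probes (2 of Asns, and Calr, Shmt2, Gdf15 and Slc3a2) had an unadjusted p under 0.05, but so had 14% of all tested probes, and the smallest adjusted p of a member was 0.232.

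**Figure D4:**
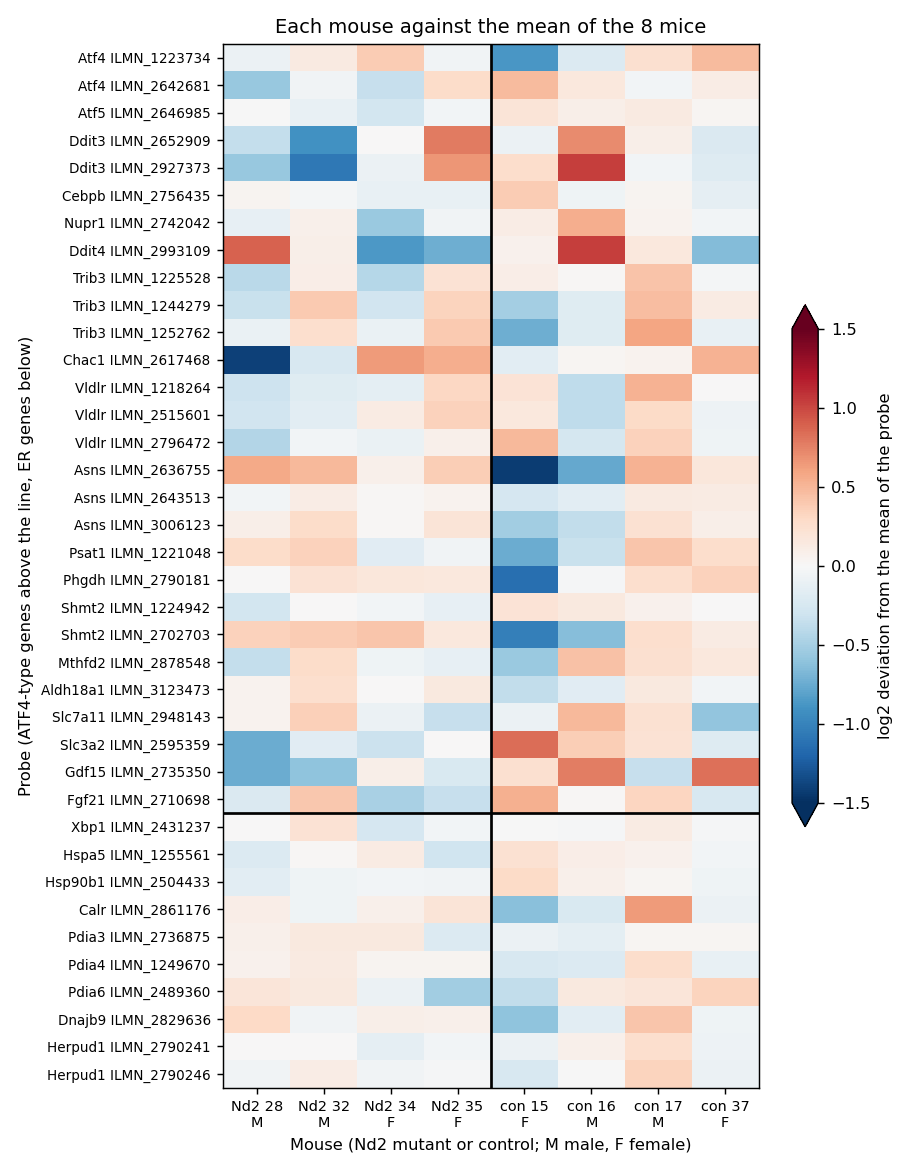
Log2 deviation of each mouse from the probe's mean over 8 mice, for 28 ATF4-type probes (above the line) and 10 ER probes (below), with mutant mice left and control mice right of the vertical line. Control mouse 17 is above the mean with most probes (medians 0.23 and 0.21), and control mouse 15 is lowest with 8 of the 9 enzyme probes.

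The sexes were compared with strain as a term, since each strain had 2 males and 2 females. With limma, 0 of 38 member probes had an adjusted p under 0.05, against 2 of all tested probes (0.0192%), and 3 of 38 had an unadjusted p under 0.05, or 7.89% (2 higher and 1 lower in males), against 8.31% of all tested probes (3.86% higher and 4.45% lower). The sexes did not overlap for 3 of 38 member probes (7.89%), all higher in males, against 5.16% of all tested probes in either direction and 2.49% with males higher. Ddit4 was higher in all 4 males, at 2129, 1221, 2365 and 1280.4, than in all 4 females, at 624, 685, 1201 and 722. The log2 difference was 1.09 (SE 0.26, unadjusted p = 0.00224 and limma adjusted p = 0.348). Slc7a11 did not overlap between the sexes either, with 69.0, 88.5, 98.8 and 79.9 in males and 61.0, 48.3, 60.9 and 38.2 in females, and a log2 difference of 0.56 (SE 0.17, limma adjusted p = 0.449). The third was a Herpud1 probe (ILMN_2790241), with 2422 ± 201 (SD, n = 4) in males and 2147 ± 53.6 (SD, n = 4) in females and a log2 difference of 0.17 (SE 0.13, limma adjusted p = 0.746). Chac1 was lower in males, at 663 ± 253 (SD, n = 4) against 1092 ± 248 (SD, n = 4), with a log2 difference of -0.78 (SE 0.32, limma adjusted p = 0.578). Of the 10 ER probes, 8 were higher in males, against 5453 of all 10414 tested probes. The median of the ER probes was 0.17, where all tested probes had 0.01. Among these ER probes, control mouse 17, a male, was highest in 5, and control mouse 15, a female, was lowest in 4. The part of these mice in the sex difference was not tested.

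The strain difference of a few ATF4-type probes ran in opposite directions in the sexes, without passing the adjustment. In the fit of the interaction of strain and sex, 0 member probes had an adjusted p under 0.05, against 1 of all tested probes (0.0096%), and 3 of 38 had an unadjusted p under 0.05, or 7.89%, against 1.77% of all tested probes. These were both Ddit3 probes and Chac1. With ILMN_2652909, both mutant males had less Ddit3 than both control males, and both mutant females had more than both control females. The strain difference was -1.04 in males and 0.55 in females on the log2 scale, and the interaction was -1.59 (SE 0.47, unadjusted p = 0.00913 and limma adjusted p = 1). The other Ddit3 probe gave -1.32 and 0.25, with an interaction of -1.58 (SE 0.57, unadjusted p = 0.0235 and limma adjusted p = 1). For Chac1 the values were -0.86 in males and 0.41 in females, with an interaction of -1.27 (SE 0.53, unadjusted p = 0.0433 and limma adjusted p = 1). Each of these groups held 2 mice, and mutant mouse 35, with the high macrophage marker sum, was a female with the highest Ddit3 of the 8 mice with ILMN_2652909.

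**Figure D5:**
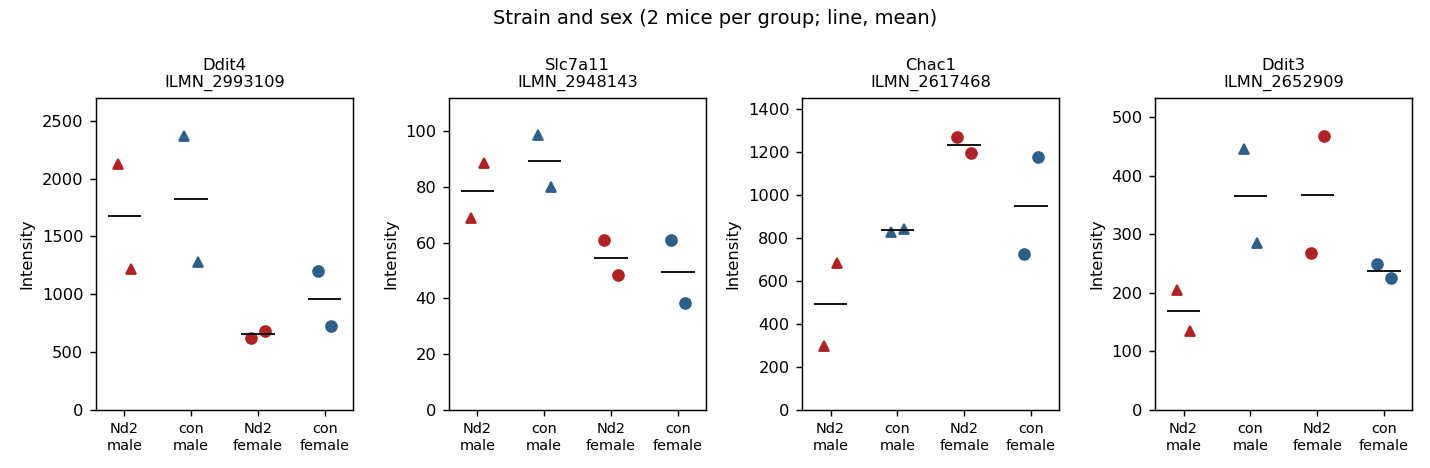
Intensities of Ddit4, Slc7a11, Chac1 and a Ddit3 probe in each mouse by strain and sex (2 mice per group; the line is their mean). Ddit4 and Slc7a11 are higher in all 4 males than in all 4 females, and the order of the strains for Ddit3 is opposite in males and females.

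Further genes of the same pathways were read from a list of 74 genes, of which 69 had a probe and 55 were tested with 80 probes. Of these probes 33 were higher and 47 lower in the mutant mice, with a median log2 fold change of -0.04. With limma, 0 had an adjusted p under 0.05 and 8, or 10%, an unadjusted p under 0.05 (5 higher, 3 lower), against 7.63% of all tested probes. The tRNA synthetases, many of which ATF4 induces, had 5 higher and 11 lower of 16 probes, with a median of -0.08. Other genes of the ATF4 and eIF2 pathway had 10 higher and 14 lower (median -0.02), and other ER folding and degradation genes had 9 higher and 18 lower (median -0.09). The mitochondrial chaperones and proteases, the effectors of the mitochondrial unfolded protein response, had 9 higher and 4 lower (median 0.12), with no unadjusted p under 0.05. Control mouse 15 was the lowest of the 8 mice with 7 of these 13 probes. The median was 0.06 without it, 0.05 without control mouse 16, 0.20 without control mouse 17, 0.02 with array weights and -0.03 in males alone. For the other ER genes the median was -0.01 without control mouse 15 and 0.03 in males alone, and for the tRNA synthetases it was 0.01 in females alone.

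The smallest p of these genes belonged to Mbtps1, the protease that releases ATF6 in the Golgi (ILMN_1239494). Its intensity was 320.3, 284, 372 and 349 in mutant and 191, 153, 257 and 242 in control mice, with no overlap and a log2 fold change of 0.63 (SE 0.18, unadjusted p = 0.00479 and limma adjusted p = 0.639). The other 2 tested Mbtps1 probes overlapped between the strains, with log2 fold changes of 0.24 (ILMN_1245330) and 0.29 (ILMN_2748537). Of the 80 probes, 4 (5%) did not overlap between the strains, against 4.37% of all tested probes. These were probes of Mbtps1, Sesn2 and Clpx, higher in the mutant mice, and of Tars, lower. Sesn2, a stress-induced inhibitor of mTORC1 and ATF4 target, was higher with 2 probes, at 164 ± 21.2 (SD, n = 4) against 115 ± 22.2 (SD, n = 4) with ILMN_2948945 and at 30.4 ± 4.18 (SD, n = 4) against 20.9 ± 3.30 (SD, n = 4) with ILMN_1219984. Their log2 fold changes were 0.47 (SE 0.17) and 0.33 (SE 0.13), and the strains did not overlap with the dimmer probe. The tRNA synthetases Eprs and Tars lay on opposite sides, with log2 fold changes of 0.55 (SE 0.20, ILMN_3148398) and -0.30 (SE 0.12, ILMN_1239799). The other tested probe of each gene had the same direction, at 0.46 (SE 0.21) and -0.34 (SE 0.19). The Tars probe ILMN_1239799 was dim, at 17.1 ± 1.39 (SD, n = 4) against 24.7 ± 1.71 (SD, n = 4). The study lists Tars among its lower genes from these same arrays, so that its direction is not independent evidence. Atf3, an immediate stress factor downstream of ATF4, was at 46.4, 51.2, 2.52 and 15.9 in mutant and 65.7, 52.1, 46.3 and 65.7 in control mice, with a log2 fold change of -0.88 (SE 0.36). Mutant mice 28 and 32 overlapped with control mouse 17. The 2.52 of mutant mouse 34 was below the lowest detected intensity of its array, 12.1. Atf3 therefore entered the test through the control arrays. Ppp1r15a, found under the symbol Myd116 (ILMN_2722938), was at 513 ± 105 (SD, n = 4) against 725 ± 182 (SD, n = 4). Its log2 fold change was -0.48 (SE 0.20), and the strains overlapped. Mbtps1 (ILMN_1239494), Eprs (ILMN_3148398), Atf3, Tars (ILMN_1239799), Ppp1r15a and both Sesn2 probes had an unadjusted p under 0.05 and an adjusted p of 0.639 from limma.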

How the data were processed

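RNA of skin fibroblasts of 8 mice, 1 array each, had been hybridised to MouseRef-8 v2.0 arrays. GenomeStudio was used by the authors for extraction, quantile normalization and background subtraction, and the deposited intensity of a probe is linear. A deposited detection p-value, from negative control beads, accompanies each intensity. The table named as non-normalized held the same values as the normalized one.

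Intensities were converted to log2(intensity + 16) after negative ones had been raised to 0. Probes were tested if detected (p-value under 0.01, as in the methods) on all 4 arrays of at least 1 strain. Strains were compared with limma 3.58.1 (lmFit, eBayes; R 4.3.3), with 2-sided p-values adjusted by Benjamini-Hochberg across the 10414 tested probes (threshold 0.05), and single probes also by an exact 2-sided permutation test over 70 splits. The sexes were compared in a fit that held strain, and an interaction fit was added. Probes of a gene were kept apart. Strain, sex and mouse number came from the labels. The steps were tested on simulated data. Promoters came from RefSeq (GRCm38.p6).

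The members, gene lists and tests were chosen with earlier results of these data known. Values in every mouse were given for member probes with an unadjusted p under 0.05 or without overlap, for the sensors, and for a fixed set of main genes; members with an unadjusted p under 0.05 for sex or the interaction were named, as were up to 6 other pathway genes with the smallest p. Nupr1, Slc7a11 and Calr were given in more detail, and Clpx was named, after their values were seen. Alternatives were 1 or 50 added, the linear scale, other detection filters, the methods' t-test, a trend in eBayes, array weights, sex as a term, each sex alone, centred arrays, and each mouse left out.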

Additional observations from a re-analysis of the deposited data

Results flagged for a closer look

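Xbp1 (ILMN_2431237) in control mouse 17, at 2597, stood apart from the other 3 control mice, which lay between 2359 and 2369.7. Its gap to the nearest of them was 0.955 of the group's range, above the critical value of 0.829 for 4 samples. Of the 76 groups of 4 mice checked (38 member probes in 2 strains), this was the only one with a mouse so far apart, where chance gives about 1 in 20, or 3.8. Control mouse 17 was also the mouse with the highest value in 11 of 38 member probes. The strain difference of Xbp1 was -0.01 without it and -0.04 with it on the log2 scale.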

How the results depend on the processing

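Each strain difference was recomputed under 21 other settings, and 0 member probes had an adjusted p under 0.05 in any of them, with a lowest adjusted p of 0.232 (without control mouse 17). Of 38 member probes, 20 kept their direction under every setting in which they were tested and 18 did not under some, and 3 probes could not be tested under the filter of detection on all 8 arrays. Over all probes, the count past the threshold, 0 by limma, was 3 with no filter on detection and 1 with the methods' t-test, and 0 without any single mouse. The number of ATF4-type probes at an unadjusted p under 0.05 was 3 of 28, or 10.7%, against 7.63% of all tested probes. It was 1 with array weights (all tested probes 7.19%), 5 in males alone, both Ddit3 probes among them (4.82%), and 0 in females alone (3.04%). When a mouse was left out, it was 0 without mutant mouse 28 (4.51%) or control mouse 16 (4.17%). It was 5 without mutant mouse 35 (5.45%) or control mouse 17 (14%), and 1 without control mouse 15 (7.91%). For the ER genes the number at an unadjusted p under 0.05, 0, ranged from 0 to 1, the latter without control mouse 17. The median of the 28 ATF4-type probes, -0.15, was 0.12 in females alone and ranged from -0.18 to -0.07 when a mouse was left out. Log2 fold changes turned with array weights for Atf4 (ILMN_1223734, -0.09), Trib3 (ILMN_1244279, -0.12), Vldlr (ILMN_2515601, -0.01), Asns (ILMN_2643513, -0.02), Psat1 (-0.07), Phgdh (-0.03), Slc7a11 (0.13) and Calr (-0.06). In males alone they turned for Cebpb (0.02), Trib3 (-0.11 and -0.12), Vldlr (ILMN_2515601, -0.17), Xbp1 (0.06), Calr (-0.19), Pdia6 (0.00) and Dnajb9 (0.00), and in females alone for Ddit3 (0.55 and 0.25), Chac1 (0.41), Mthfd2 (0.11), Slc7a11 (0.12) and Herpud1 (ILMN_2790246, 0.13). Leaving out each mouse gave ranges that crossed 0 for Atf4 (ILMN_1223734, -0.07 to 0.37), Ddit3 (ILMN_2652909, -0.54 to 0.02), Trib3 (ILMN_1244279, -0.11 to 0.22), Chac1 (-0.47 to 0.20), Vldlr (ILMN_2515601, -0.11 to 0.11), Psat1 (-0.01 to 0.37), Phgdh (-0.05 to 0.44), Slc7a11 (-0.22 to 0.14), Xbp1 (-0.12 to 0.04), Calr (-0.04 to 0.39), Pdia6 (-0.29 to 0.01) and Herpud1 (ILMN_2790246, -0.08 to 0.11). The cause was not tested. On the linear scale, where no median log2 fold change was computed, and with the methods' t-test, the member probes at an unadjusted p under 0.05 were those of Atf5 and Shmt2 (ILMN_1224942), both lower. The share of all tested probes was 6.02% on the linear scale and 6.7% with the t-test. No paired analysis was possible because no mouse number occurs in both strains. Normalization from non-normalized values was not run, since both tables hold the same values, nor was the chip as a block, since no chip is named. At most 44.2% of probes were detected on an array, so that dim members such as Gdf15, Fgf21 and the dim Shmt2 probe lay near the background.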
